A study of Mus musculus with 8 samples.

Results

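Open chromatin was mapped by ATAC-seq in regulatory T cells (Treg) from the tumour and from the spleen of mice, with 1 library from each tissue out of 8 libraries in the series. The members were all peaks of the tumour list and all peaks of the spleen list that lie on the 19 autosomes, which left 27012 of 27655 tumour peaks and 12800 of 13089 spleen peaks. Both libraries came from C57BL/6 mice aged 8 to 12 weeks with the genotype JMJD1CWT, that is, with an intact gene for the histone demethylase JMJD1C. Tumour lymphocytes were taken up after enzyme digestion and a Percoll gradient, and Treg of both tissues were enriched on magnetic beads and then sorted by fluorescence. The tumour model, the number of mice pooled and the marker used for the sort are not given in the sources used here. With 1 library per tissue there is no replicate spread, so no test was made between tumour and spleen, and the 95% exact binomial (Clopper-Pearson) intervals printed below cover counting error only.

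Treg are CD4 T cells that hold down immune responses and are defined by the transcription factor Foxp3. In lymphoid organs many of them are in a resting state and recirculate, with Bach2, Foxp1, Satb1, Lef1 and Tcf7 among the factors linked to that state. In tissues and tumours they carry effector programmes, with receptors such as Ccr8 and Tnfrsf9, and AP-1, NF-kB and NR4A factors act downstream of T cell receptor and TNF receptor signals. ATAC-seq marks accessible DNA, because the Tn5 transposase inserts adapters where nucleosomes leave DNA exposed.

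The libraries were nearly equal in depth, with 11293674 tags for tumour and 11068821 tags for spleen. They differed in how the tags were spread and in how peaks were called. In the tumour library 11.03% of tags fell in peaks, against 4.77% in the spleen library. The caller, HOMER findPeaks, set a peak width of 322 bp for tumour and 869 bp for spleen, a minimum distance between peaks of 644 bp and 1738 bp, and a threshold of 10 tags and 15 tags. Peak lists made this way differ in length, width and spacing before any difference between the cells. Peak sharing, distances, genes per peak, gene list counts and pair ratios are therefore given as deposited and again with the tumour list cut to the 12800 peaks of highest findPeaks Score and all peaks resized to 300 bp around their centres, called the equal-length lists below. Their part in each difference, apart from these alternatives, was not tested.

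To show what the lists look like at base level, the 250 bases before the start of 7 genes are printed 5′ to 3′ on the gene's strand, from RefSeq (GRCm38.p6, the assembly behind mm10). Each gene belongs to the lists used below, and the 7 were picked after their values were seen. The promoter window of Ccr8 (chemokine receptor of tumour Treg), Tnfrsf8 (CD30), Havcr2 (TIM-3), Ccr4 (skin and tissue homing receptor) and Gzmb (granzyme B) was touched by a tumour peak alone, that of Satb1 (chromatin organiser) by a spleen peak alone, and that of Il2ra (the high-affinity chain of the IL-2 receptor, CD25) by both, as deposited and in the equal-length lists. Capitals mark matches, on either strand, to any of 14 motifs searched in 31396 RefSeq promoter windows. AP-1 factors were searched as TGANTCA, which 7.84% of all windows hold. The letters of the RUNX motif, TGTGGTT, stand in 5.32% of windows. For the GATA motif, written AGATAA, the share is 11.2%. TCF/LEF letters (CTTTGAA) are in 5.09%. An E-box was written CAGGTG and found in 20.5%. The core of the CTCF motif, AGGGGGC, is in 10.7%. The NF-kB, NFAT, ETS and KLF/SP letters are given with their results below, and IRF, FOX, NR4A and STAT motifs, held by 3.46%, 3.71%, 1.51% and 1.18% of windows, had no match in these stretches. Matches of different motifs may overlap. The stretches lie at chr9:120091883-120092132 on the plus strand (Ccr8), chr4:145315165-145315414 on the minus strand (Tnfrsf8), chr11:46454681-46454930 on the plus strand (Havcr2), chr9:114496545-114496794 on the minus strand (Ccr4), chr14:56262335-56262584 on the minus strand (Gzmb), chr17:51826589-51826838 on the minus strand (Satb1, at a start inside the gene) and chr2:11642542-11642791 on the plus strand (Il2ra).
Ccr8: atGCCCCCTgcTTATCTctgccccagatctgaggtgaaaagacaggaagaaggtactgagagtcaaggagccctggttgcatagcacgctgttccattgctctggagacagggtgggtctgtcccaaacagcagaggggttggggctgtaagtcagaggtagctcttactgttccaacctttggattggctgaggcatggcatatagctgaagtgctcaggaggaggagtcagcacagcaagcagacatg
Tnfrsf8: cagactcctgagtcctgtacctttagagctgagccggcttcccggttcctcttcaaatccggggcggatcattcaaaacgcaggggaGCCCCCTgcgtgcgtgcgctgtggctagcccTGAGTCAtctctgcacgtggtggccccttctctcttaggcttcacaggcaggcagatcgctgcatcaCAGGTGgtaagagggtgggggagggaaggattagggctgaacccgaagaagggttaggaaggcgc
Havcr2: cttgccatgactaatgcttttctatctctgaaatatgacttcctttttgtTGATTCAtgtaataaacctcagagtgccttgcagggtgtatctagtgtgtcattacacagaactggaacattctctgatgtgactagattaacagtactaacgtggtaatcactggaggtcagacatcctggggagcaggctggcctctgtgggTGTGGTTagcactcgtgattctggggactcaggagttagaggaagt
Ccr4: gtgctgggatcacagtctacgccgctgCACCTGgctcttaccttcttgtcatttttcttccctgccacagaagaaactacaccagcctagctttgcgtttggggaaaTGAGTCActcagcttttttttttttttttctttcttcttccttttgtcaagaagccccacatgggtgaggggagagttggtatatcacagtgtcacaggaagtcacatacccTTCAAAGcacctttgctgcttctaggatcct
Gzmb: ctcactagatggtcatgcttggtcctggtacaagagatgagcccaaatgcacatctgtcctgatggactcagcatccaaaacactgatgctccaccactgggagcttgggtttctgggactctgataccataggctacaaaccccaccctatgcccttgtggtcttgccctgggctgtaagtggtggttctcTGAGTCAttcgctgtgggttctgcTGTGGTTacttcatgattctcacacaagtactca
Satb1: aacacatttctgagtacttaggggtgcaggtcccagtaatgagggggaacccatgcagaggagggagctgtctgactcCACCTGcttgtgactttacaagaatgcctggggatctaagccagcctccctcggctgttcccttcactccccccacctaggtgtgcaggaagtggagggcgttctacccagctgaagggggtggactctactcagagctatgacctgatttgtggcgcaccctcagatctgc
Il2ra: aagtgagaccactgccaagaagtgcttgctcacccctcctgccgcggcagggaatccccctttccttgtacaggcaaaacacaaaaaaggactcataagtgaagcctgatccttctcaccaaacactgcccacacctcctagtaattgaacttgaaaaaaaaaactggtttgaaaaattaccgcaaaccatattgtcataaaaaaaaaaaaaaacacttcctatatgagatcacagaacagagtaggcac

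The tumour peak at the Ccr8 promoter held 97.4 tags per 10000000 tags of the library, the unit HOMER calls Normalized Tag Count and the one used for every peak height below. The spleen list had its nearest peak, of 24.8, centred 935 bp from the Ccr8 start. With the spleen minimum distance of 1738 bp between peaks, a lower spleen peak at this promoter would not have been listed. At Tnfrsf8 the tumour peak held 102.3, and the nearest spleen peak was centred 4304 bp from the start. The tumour peaks held 70.0 at Havcr2, 69.5 at Gzmb and 28.8 at Ccr4, and the nearest spleen peaks were 17920 bp, 34652 bp and 53042 bp from those starts. The Satb1 start had a spleen peak of 19.9, with the nearest tumour peak 6474 bp away. At Il2ra the peaks held 37.6 in tumour and 20.3 in spleen. Of these 7 windows Tnfrsf8, Havcr2, Ccr4 and Gzmb hold an AP-1 match, which the choice of windows can set, and the share over all windows is given further on.

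Most spleen peaks were also tumour peaks, and most tumour peaks were not spleen peaks. As deposited, 10871 of 12800 spleen peaks (84.9%, interval 84.3 to 85.5) touched a tumour peak by 1 bp or more. In the other direction 10884 of 27012 tumour peaks (40.3%, 39.7 to 40.9) touched a spleen peak, which left 16128 peaks in the tumour list only and 1929 in the spleen list only. In the equal-length lists 8065 peaks of each list (63.0%, 62.2 to 63.8) were shared and 4735 of each were not. Peaks in 1 list only were low: as deposited their median height was 16.4 in tumour and 17.2 in spleen, against 49.6 and 29.4 for shared peaks. At equal length the tumour-only median was 39.0 and the spleen-only median 18.5, since the cut removes the lowest tumour peaks.

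Sharing followed height in both lists. With each list ordered by Score and divided into 10 equal classes, 90.0% of tumour peaks were shared in the highest class and 6.77% in the lowest. The spleen list went from 99.2% in its highest class to 52.0% in its lowest.

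**Figure D1:**
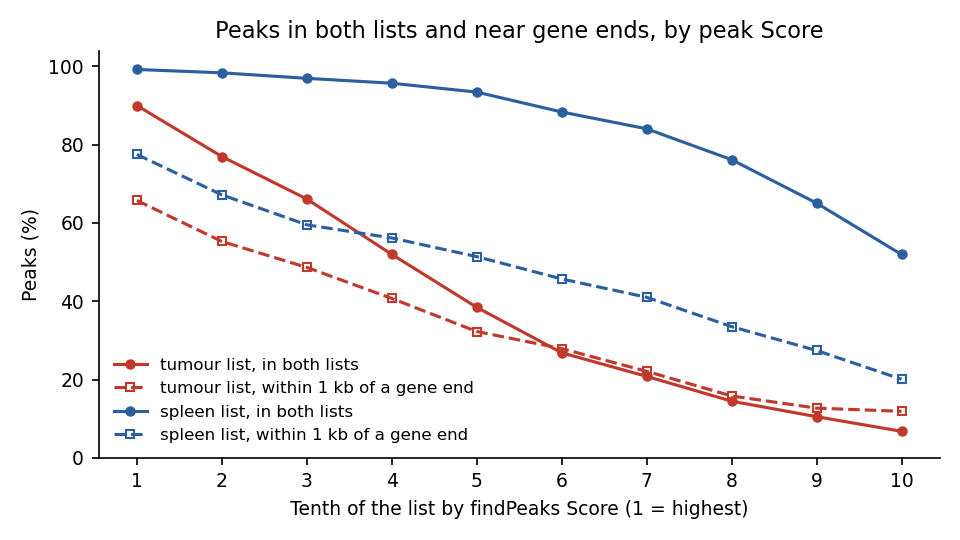
Percent of peaks (vertical axis) in 10 equal classes of the tumour list (red) and spleen list (blue), ordered by findPeaks Score with the highest at 1. Filled circles are peaks in both lists, which go from 90.0% to 6.77% in tumour and from 99.2% to 52.0% in spleen, and open squares are peaks centred within 1 kb of a protein-coding gene end.

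Part of what counted as unshared lay beside a peak of the other list. Of the 1929 spleen-only peaks 335 (17.4%, 15.7 to 19.1) had their centre within 1738 bp of a tumour peak centre, and of the 16128 tumour-only peaks 1173 (7.27%, 6.88 to 7.68) lay that near to a spleen peak. The tumour list also places peaks closer together: 3257 tumour peaks had another tumour peak within 1738 bp, against 8 spleen peaks with a spleen neighbour. For counts of peaks per gene a further alternative is therefore used, chosen after seeing the data, in which tumour peaks nearer than 1738 bp to a tumour peak of higher Score were left out before the list was cut to 12800 and resized (the equally spaced lists).

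Shared sites were taller in the tumour library. The 10871 peaks of each list that formed 1-to-1 pairs, each the nearest centre to the other, had a median height of 49.6 in tumour and 29.4 in spleen, and the median pair ratio was 1.55-fold. The tumour value was the higher in 8462 pairs (77.8%). The tumour heights were counted over narrower regions than the spleen heights, and the tumour library held more of its tags in peaks, so this general shift was set to zero by subtracting the median log2 ratio of 0.63. Past a fold of 2 around that median, 975 pairs (8.97%) were higher in tumour and 1286 pairs (11.8%) were lower, and these shares are the background for the single genes named below. In the equal-length lists the shares were 6.84% and 6.26%, and the excess of lower pairs was not seen there. The cut itself takes out low tumour peaks, with 22.1 the lowest height kept, while the spleen list stays whole. Pairs low in tumour are thus lost by selection, so the equal-length lists cannot show whether that excess holds. Over pairs with a mean height at or above the median, centred on their own median, 9.11% were higher and 7.42% lower. Past a fold of 3 over all pairs the shares were 1.89% and 3.17%. The lowest listed height was 7.08 in tumour and 10.4 in spleen, and the part of these floors in the excess was not tested. Heights of pairs ranked alike, with a Spearman correlation of 0.67 over 10871 pairs that share genome mappability and base composition, and 0.63 over the 8065 pairs of the equal-length lists.

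Heights ranked more alike at gene starts than away from genes, in both versions of the lists. Pairs within 1 kb of a gene start (4813) had a median centred log2 ratio of 0.12, a Spearman correlation of 0.74, and 8.52% higher and 5.76% lower in tumour. Pairs beyond 1 kb of any gene end (4979) had a median of -0.20, a Spearman correlation of 0.53, and 9.88% higher and 18.8% lower in tumour. Beyond 10 kb (3081 pairs) 21.4% were lower in tumour. The lean of distant pairs towards lower tumour heights was not seen in the equal-length lists. Because the cut takes out low tumour peaks, those lists cannot show whether the lean holds. There the medians were -0.01 at gene starts (4124 pairs) and 0.01 beyond 1 kb (3057 pairs), with 5.29% and 7.88% lower and 4.90% and 10.1% higher, and the Spearman correlations were 0.72 and 0.47. As deposited, spleen heights of the distant pairs were smaller, with a median of 24.4 against 35.2 at gene starts, and the part of counting error in their wider spread was not tested.

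**Figure D2:**
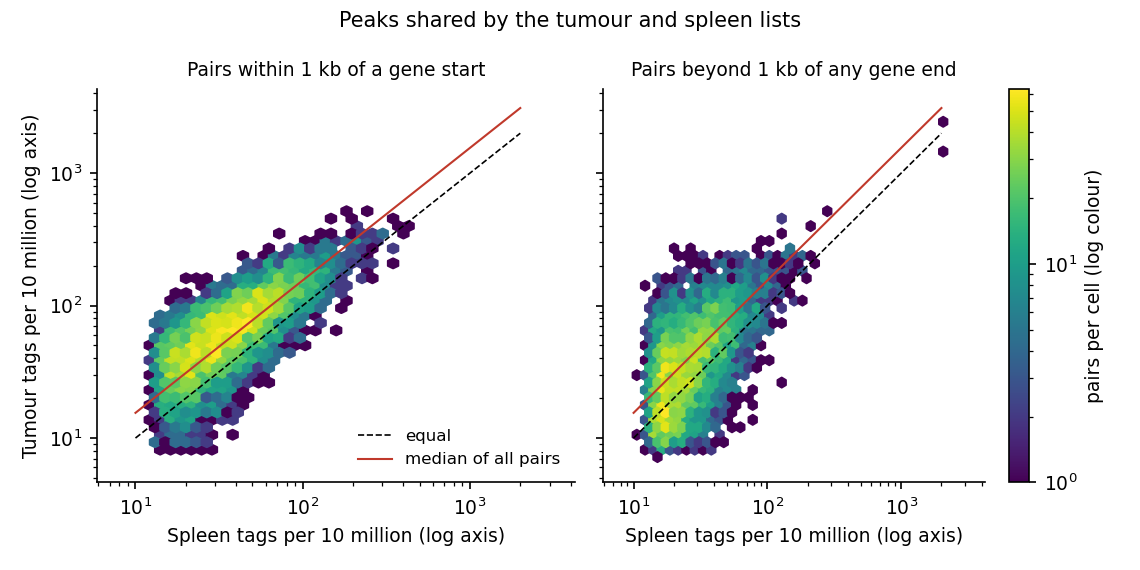
Height of shared peaks in spleen (horizontal, log axis) against tumour (vertical, log axis), in tags per 10000000, for pairs near gene starts (left) and away from gene ends (right), with colour for the number of pairs. The dashed line is equality and the red line the median ratio of 1.55, and the cloud is wider on the right, where the Spearman correlation was 0.53 against 0.74.

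Of the 10 pairs with the largest tumour excess among the taller pairs (mean height at or above the median), 7 lay inside genes. The pair in Pnkd/Tmbim1 (chr1:74295446-74295768) held 269.2 in tumour and 20.8 in spleen, a 12.9-fold ratio (8.47 to 20.7). In Nmnat2, an NAD-synthesis enzyme, the values were 247.9 and 20.3 (12.2-fold, 8.08 to 20.2). Gna15, a G protein alpha subunit of blood cells, had 257.7 and 25.7. Nedd9, a scaffold of integrin signalling, had 166.5 and 15.8, and Prxl2a, Mcph1 and Dhx34 had 163.4, 156.7 and 170.9 in tumour against 15.4, 14.9 and 16.7 in spleen. All 7 spleen heights were below the spleen list's median of 26.2. The other 3 of the 10 largest lay more than 10 kb from any protein-coding gene. Again 9 of the 10 were pairs in the equal-length lists, with centred log2 ratios of 2.32 to 2.85.

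The 10 largest deficits in tumour, chosen in the same way, included sites in T cell regulators. In Cblb, the E3 ligase that restrains T cell receptor and CD28 signals, a site at chr16:52147380-52147702 held 22.6 in tumour and 82.2 in spleen, a ratio of 0.275 (0.174 to 0.437). In Cd226, the activating counterpart of TIGIT, the values were 19.9 and 63.7 (ratio 0.312, 0.179 to 0.496). A site in Malat1, the abundant nuclear long noncoding RNA, held 24.8 and 133.7 (ratio 0.185, 0.119 to 0.279). Nrxn3 had 13.3 and 79.1, Mbp 45.2 and 177.1, and Rsu1 19.0 and 73.6. Rin2, Patj and Nsd3 had ratios of 0.357, 0.358 and 0.385, and 1 further site lay far from genes. Each of these 10 pairs was lower in tumour also without centring, and all were centred inside genes except that last one. Of the 10 only Mbp and Patj were pairs in the equal-length lists, with centred log2 ratios of -2.82 and -2.33. The other 8, those of Cblb, Cd226 and Malat1 among them, were not pairs there. Their tumour heights were 13.3 to 24.8, and the cut takes out low tumour peaks, with 22.1 the lowest height kept. The equal-length lists thus cannot check these 8.

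Of the 270 tumour peaks in the top 1% by height 265 had a spleen partner, and of the 128 spleen peaks in that list's top 1% 126 had a tumour partner. In each list the highest peaks were a pair of sites on chromosome 2, at chr2:98666610-98666932 and chr2:98662538-98662860, over 1 Mb from any protein-coding gene, with 2414.6 and 1506.6 in tumour and 1984.4 and 2026 in spleen. At these sites the tag count was 4.48 and 2.51 times the Score in tumour, where the median peak had 1.07. A site in Chl1 had the third place in tumour, with 501.2 against 287.3 in spleen, and a focus ratio of 0.996. Below these stood sites in or beside genes: Hjurp (498.1 and 248.9), AW549877 (489.7 and 183.8), Anxa5 (483.5 and 195.1), Dnpep (462.6 and 325.2) and Opn3 (451.1 and 150.9) came next in the tumour list. In the spleen list a site in Rn18s-rs5, described below, held the third place, followed by Lnpep (408.4 in spleen, 395.8 in tumour), Kbtbd3 (385.3 and 363.0), Serpini1 (355.1 and 270.5), Khsrp (353.2 and 392.7) and Gsk3b (331.1 and 272.7). Of the tumour peaks in the top 10% by height, 1046 (38.8%) paired with a spleen peak in that list's top 10%, and these were 81.7% of the spleen top 10%. At equal length the median difference in percentile rank of a pair, tumour minus spleen, was -1.75 points.

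Peaks of 1 list only were examined from the top. The highest tumour-only peak, 239.5, lay 9837 bp outside Clec16a, and its nearest spleen peak was 17536 bp away. Others stood in Cd82, a tetraspanin (208.1, nearest spleen peak 3517 bp away), in Lrp8 (200.1, nearest 1802 bp), 1961 bp outside Arid5a, an RNA-binding regulator of cytokine transcripts (189.5, nearest 17998 bp), and 2572 bp outside Tgfb1, the suppressive cytokine of Treg (188.2, nearest 18032 bp). A tumour-only peak in Sap130 (194.4) and one at chr8:4678416-4678738 (195.7) were centred 656 bp and 719 bp from spleen peaks of 126.9 and 201. A pair of sites in Sfi1 (229.3 and 205.9) stood only 6.50 and 5.67 times above their 10 kb surroundings, where a ratio of 4 was required. The highest spleen-only peak, 1153.2 at chr17:39847383-39848251, lies in the annotated ribosomal RNA pseudogene Rn18s-rs5. It passed the local filter at 4.22, and no tumour peak was listed within 1 Mb of it. The other 9 of the 10 highest spleen-only peaks, among them those in Sap130 (126.9), Mthfd1l (90.3), Trps1, Insig1 and Socs1 (70.9), all had a tumour peak centred 605 to 1244 bp away, so at these places the lists differ in position and not in the presence of a nearby peak. The Socs1 site, in a feedback inhibitor of cytokine receptors, stood 1244 bp from a tumour peak of 77.0.

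Peak shape differed little. The focus ratio, the caller's fraction of tags found in the expected strand arrangement around the centre, had a median of 0.714 (quartiles 0.667 to 0.760) in tumour and 0.727 (0.679 to 0.773) in spleen. In the tumour list it was 0.713 for shared and 0.714 for tumour-only peaks, and it stayed at 0.714 for the cut list. In the spleen list it was 0.731 for shared and 0.705 for spleen-only peaks. Over the 10 classes of the spleen list by Score it went from 0.750 at the top to 0.707 at the bottom, while the tumour classes lay between 0.711 and 0.717.

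Tumour peaks lay farther from genes as deposited, and this did not hold at equal length. The median distance from a peak centre to the nearest end of a protein-coding gene was 5940 bp in tumour and 1420 bp in spleen, and 33.3% (32.7 to 33.9) and 48.0% (47.1 to 48.8) of peaks were within 1 kb. With the tumour list cut to 12800 peaks its median was 1057 bp and 49.6% (48.8 to 50.5) were within 1 kb. Leaving out chromosome 18, 26.6% of tumour peaks and 40.2% of spleen peaks stood within 1 kb of a gene start of known strand, against 1.65% and 1.34% for the other end. Strand was known for 16457 of the 20665 genes, so peaks near the remaining genes alone count at neither end. Of all tumour peaks 29.3% lay between genes and beyond 1 kb, and of all spleen peaks 22.4%.

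Peaks in 1 list only were more distant than shared peaks in both tissues. As deposited, within 1 kb of a gene end lay 19.2% (18.6 to 19.9) of tumour-only peaks and 12.2% (10.8 to 13.7) of spleen-only peaks, against 54.2% of shared tumour peaks. Medians were 10186 bp for tumour-only and 26040 bp for spleen-only peaks. With all peaks resized to 300 bp and no other step, the shares within 1 kb were 20.4% for tumour-only and 21.8% for spleen-only peaks, so their order depended on the width, while the medians were 9789 bp and 16050 bp. In the equal-length lists the shares were 28.4% and 23.8%, the medians 6418 bp and 13043 bp, and 95.2% and 86.6% lay within 100 kb. The spleen-only peaks at equal length were also the lower ones, with a median height of 18.5 against 39.0, and the part of height in the difference was not tested.

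**Figure D3:**
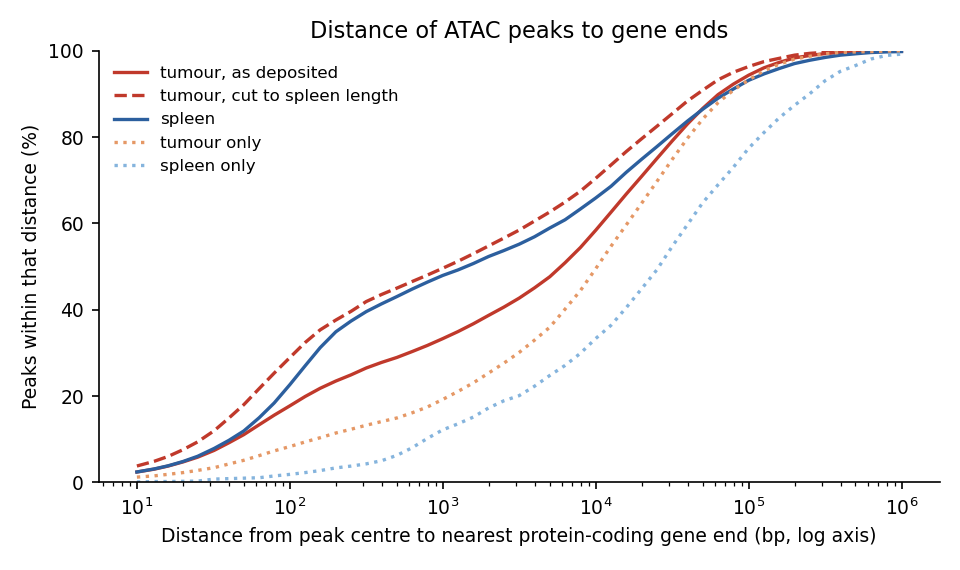
Percent of peaks (vertical axis) centred within a given distance in bp (horizontal, log axis) of the nearest protein-coding gene end. The tumour list as deposited (red, solid) runs below the spleen list (blue, solid) at short distances, 33.3% against 48.0% at 1 kb, the cut tumour list (red, dashed) reaches 49.6% there, and spleen-only peaks as deposited (light blue, dotted) are the farthest.

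Per peak the lists touched a like number of genes. A tumour peak lay within 5 kb of 0.945 protein-coding genes on average and a spleen peak of 1.06, and at equal length the means were 1.09 and 1.05. As deposited 12740 of 20665 genes (61.7%) had a tumour peak and 10044 (48.6%) a spleen peak, and 7543 (36.5%) had a tumour-only peak against 1216 (5.88%) with a spleen-only peak. At equal length 46.7% had a tumour peak and 16.1% a tumour-only peak. In the equally spaced lists the shares with a tumour and a spleen peak came to 47.7% and 48.3%, 16.2% had a tumour-only and 15.3% a spleen-only peak, and more tumour than spleen peaks were counted at 2320 genes (11.2%), more spleen peaks at 2031 genes (9.83%). Over the 11050 genes with a peak in either list those shares were 21.0% and 18.4%. As deposited 34.5% of all genes had more tumour peaks and 2.44% more spleen peaks, and the equal-length lists without the spacing step gave 11.7% and 10.3%. The gene with the most peaks was Prkch, a protein kinase C of T cells, with 23 in tumour, and 13 at equal length. In spleen it was Pde4d, a cyclic AMP phosphodiesterase, with 12.

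Genes of effector and tumour Treg held more tumour peaks than spleen peaks also when the lists were made alike in length, width and spacing. In the equally spaced lists 17 of the 33 genes had more tumour peaks and 3 had more spleen peaks, with 63 and 33 peaks in all, beside 11.2% and 9.83% of all genes. Over the 29 genes with a peak there the shares were 58.6% and 10.3%, beside 21.0% and 18.4% of all genes with a peak. As deposited a tumour-only peak was found at 29 of the 33 and a spleen-only peak at 2, beside 36.5% and 5.88% of all genes. These lists were written with earlier results of the same data known, so the counts describe the lists and do not single them out.

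Some receptors of the group held more tumour peaks and others did not. Tnfrsf8 had 9 tumour peaks and 1 spleen peak, and 5 and 1 in the equally spaced lists. Il1rl1, the receptor for the tissue alarmin IL-33, had 6 and 0 (2 and 0), with heights up to 33.6. Ccr4 had 4 tumour peaks and none in spleen, and Klrg1, a marker of terminal effector cells, 3 and 0. At Ccr8, besides the promoter peak above, a shared pair held 74.8 in tumour and 24.8 in spleen (3.02-fold, 1.96 to 4.89). Ccr8 had 2 tumour peaks and 1 spleen peak as deposited, and 1 and 1 in the equally spaced lists. Tnfrsf9, the costimulatory receptor 4-1BB, held the group's largest pair ratio, 170.0 and 25.7 (6.61-fold, 4.51 to 10.4), at chr4:150924245-150924567. In the equally spaced lists Tnfrsf9 had 2 tumour and 2 spleen peaks, Il1r2 1 and 1, and Cxcr6 0 and 1. At Tnfrsf1b, the TNF receptor TNFR2, 1 pair held 127.9 and 46.1 and another 14.6 and 28.0, so sites of the same gene went in opposite directions. No peak was listed near Icos, Layn or Cd177 in either tissue, though heights below the thresholds of 10 and 15 tags cannot be seen.

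Effector products and factors were mixed. Il10, the suppressive cytokine, had 2 tumour peaks, up to 87.7, and no spleen peak, and Gzmb 1 and 0. Rora, a nuclear receptor of tissue lymphocytes, had 19 tumour peaks and 2 spleen peaks, and 11 and 2 in the equally spaced lists, with pairs of 98.3 against 22.6 and of 143.9 against 48.3. Bhlhe40, a factor of activated T cells, had a pair at 149.2 and 37.9 (3.94-fold, 2.80 to 5.67), and Prdm1 (Blimp-1) one at 117.8 and 34.8 (3.39-fold, 2.32 to 4.91). Irf4 had 1 and 2 peaks in the equally spaced lists, with heights of 31.4 and 29.4 at its main pair, and Maf 57.1 and 61.9. Over the 31 pairs of the effector list the median centred log2 ratio was 0.05, with 4 higher and 2 lower past 2-fold, so shared sites of the list as a whole stood near the median of all pairs. At equal length the median over 21 pairs was -0.15, with 2 higher and 0 lower, beside 6.84% and 6.26% of all pairs.

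**Figure D4:**
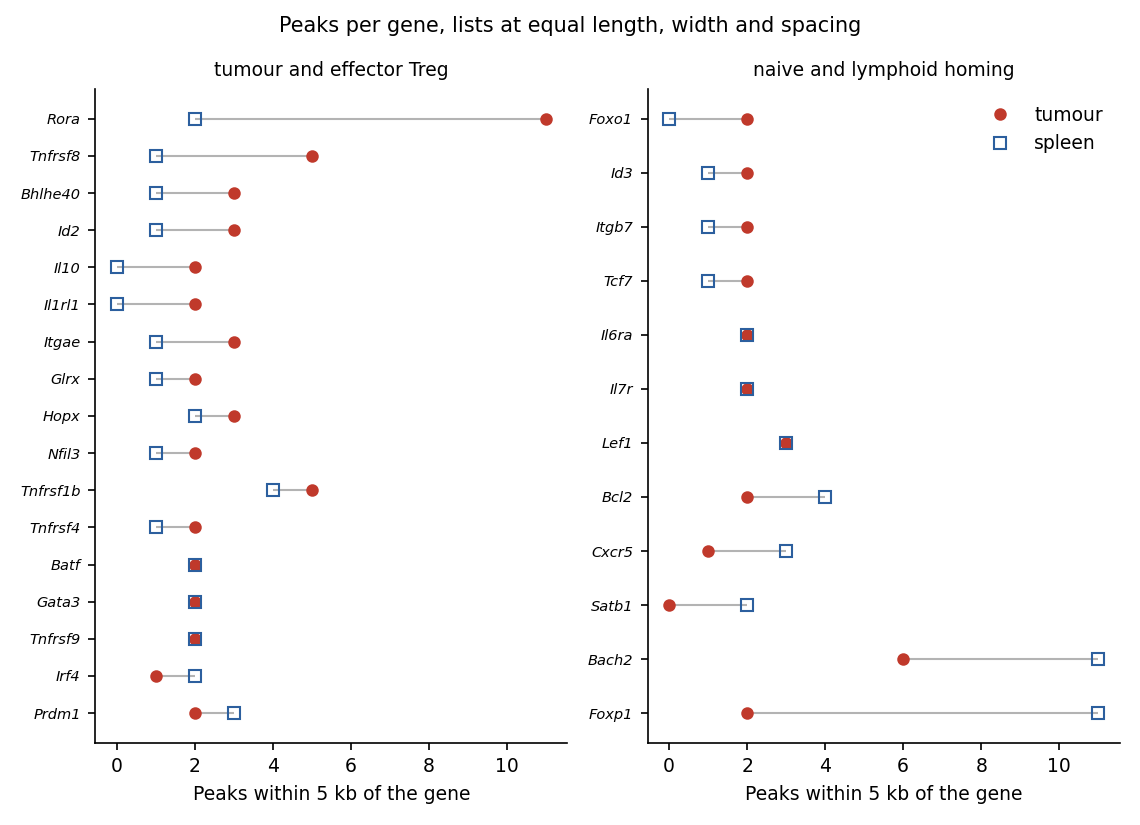
Number of peaks within 5 kb of each gene (horizontal axis) in tumour (red circles) and spleen (blue squares) for the genes of the effector list (left) and the naive and lymphoid homing list (right) with 2 or more peaks in either tissue, in the equally spaced lists. Rora has 11 tumour and 2 spleen peaks, while Foxp1 has 2 and 11 and Bach2 6 and 11.

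Most genes of the Treg identity list had peaks in both tissues. As deposited 16 of the 17 autosomal genes had a tumour peak and 14 a spleen peak, beside 61.7% and 48.6% of all genes. Lrrc32 and Socs2 had a tumour peak only. Foxp3 itself lies on the X chromosome, outside the autosomes, with 2 peaks in each list (45.2 and 65.1 in tumour, 32.5 and 44.7 in spleen). Il2ra had 2 peaks in each, all shared, the taller pair at 69.5 and 35.2. Ikzf2 (Helios), which marks thymus-derived Treg, had 15 tumour and 3 spleen peaks, and 5 and 3 in the equally spaced lists. Entpd1 (CD39), an ATP-cleaving ectoenzyme, had 9 and 3, with a pair of 119.1 and 38.8. Il2rb, the beta chain of the IL-2 receptor, had a pair of 135.9 and 41.6, the only pair of the list higher past 2-fold after centring. Nt5e (CD73) had a shared pair that was lower in tumour, at 20.4 against 37.0. It also had a tumour-only peak of 44.3 and a spleen-only peak of 14.5, and its promoter window was touched by a tumour peak alone. In the equally spaced lists 15 of the 17 autosomal genes had a peak. Of these 7 (46.7%) had more tumour and 5 (33.3%) more spleen peaks, beside 21.0% and 18.4% of all genes with a peak. The 25 pairs of the list had a median centred log2 ratio of 0.05, with 1 higher and 3 lower, and at equal length -0.01 over 16 pairs with none past 2-fold. No peak was listed at Ctla4 in either list, although it is among the genes that define these cells.

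Among the 12 inhibitory receptor genes 5 had more tumour and 2 more spleen peaks in the equally spaced lists, beside 11.2% and 9.83% of all genes. Over the 9 genes with a peak there the shares were 55.6% and 22.2%, beside 21.0% and 18.4% of all genes with a peak. The 12 shared pairs of the list leaned the other way, with a median centred log2 ratio of -0.29, 0 higher and 2 lower past 2-fold. At equal length the median was -0.44 over 10 pairs with 0 higher and 2 lower. Havcr2 had 4 tumour peaks, up to 83.7, and none in spleen. Pdcd1 (PD-1) had a tall shared pair in both, 157.2 and 126.5, and 2 further tumour peaks. Tigit had 113.8 and 61.0, close to the median ratio of all pairs. Btla, the receptor for HVEM on resting lymphocytes, went the other way: its pair held 14.6 in tumour and 31.2 in spleen (ratio 0.468, 0.232 to 0.831), and at equal length it had no tumour peak and 2 spleen peaks. Lag3, with 6 and 1 peaks, had a shared pair of 27.0 and 21.7.

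Genes of the AP-1, NF-kB and NR4A, NFAT and TOX lists also held more tumour peaks. In the equally spaced lists 6 of 12 AP-1 genes had more tumour peaks and 0 more spleen peaks, for the NF-kB genes the counts were 5 and 0 of 13, and for the NR4A, NFAT and TOX genes 7 and 2 of 11. Beside these stand 11.2% and 9.83% of all genes, or 21.0% and 18.4% of genes with a peak. Junb and Batf3 had a peak in tumour only. Fosl2 held 132.8 in tumour and 17.6 in spleen (7.55-fold, 4.79 to 13.2), the widest pair ratio of any list gene, Atf3 87.7 and 19.4, Maff 105.8 and 26.7, and Mafk 80.6 and 23.0. The pairs were not all alike: Jun held 143.0 and 129.2, and Fosb 41.6 and 49.7. The 9 AP-1 pairs had a median centred log2 ratio of 0.47, with 4 higher past 2-fold and 0 lower, beside 8.97% and 11.8% of all pairs. At equal length the median over 8 pairs was 0.61, with 3 higher and 1 lower.

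For NF-kB genes the median over 17 pairs was 0.40, with 3 higher and 0 lower, and at equal length 0.32 over 15 pairs with 2 higher and 0 lower. The 3 higher pairs were Nfkbie (81.0 and 18.1) and a pair of sites in Bcl3 (164.7 against 44.3 and 56.7 against 16.3), both IkB family members. Relb, a subunit of the noncanonical pathway, held 278.0 and 112.5, and Birc3, a target gene and ubiquitin ligase of TNF receptor signalling, 259.9 and 89.9. The NR4A, NFAT and TOX list did not share this: its 19 pairs had a median of -0.15, with 1 higher and 2 lower, and its 12 pairs at equal length -0.23 with 1 higher and 0 lower. Its higher pair as deposited stood in Nr4a1. That gene, an immediate target of T cell receptor signals, held 116.4 and 22.1 (5.27-fold, 3.44 to 8.65). Nfatc2 had 10 tumour peaks and 1 spleen peak, and 7 and 1 in the equally spaced lists, with its shared pair even at 44.7 and 46.5. Tox had 12 tumour and 7 spleen peaks as deposited and 3 and 7 in the equally spaced lists, and 2 of its pairs were lower past 2-fold as deposited.

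Genes of T cell receptor signalling were split. In the equally spaced lists 17 of the 18 genes had a peak. Of these 6 (35.3%) had more tumour and 5 (29.4%) more spleen peaks, beside 21.0% and 18.4% of all genes with a peak. The 30 pairs had a median of -0.15 with 2 higher and 2 lower, and the 19 pairs at equal length -0.31 with none past 2-fold. Lck, the kinase that starts signalling at the receptor, had a pair of 121.7 in tumour and 35.2 in spleen (3.46-fold, 2.397 to 5.05). Cd247 (CD3 zeta) had 6 tumour and 2 spleen peaks, and 4 and 2 in the equally spaced lists, though its promoter window was touched by the spleen list alone, while Cd3e had 30.5 and 26.7 at its shared pair.

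The naive and lymphoid homing list had the lowest median of pair ratios among the 14 lists as deposited. Over 32 pairs the median centred log2 ratio was -0.70, with 10 lower and 1 higher past 2-fold, beside 11.8% and 8.97% of all pairs. Of these pairs 28 lay beyond 1 kb of any gene end, 9 of the low ones among them, and of all pairs at such places 18.8% were lower. Only 2 of the 10 low pairs were still pairs at equal length, and the median over 17 pairs was -0.50, with 1 higher and 3 lower, beside 6.84% and 6.26% of all pairs. Since the cut takes out low tumour peaks, the loss of low pairs at equal length decides nothing about them. As deposited the low pairs stood in 5 genes: 4 in Foxp1, 2 in Bach2, 2 in Bcl2, and 1 each in Cxcr5 and Id3. The lowest, in Foxp1 at chr6:99261363-99261685, held 15.5 in tumour and 39.8 in spleen (ratio 0.389, 0.218 to 0.708), and a second Foxp1 site held 26.1 and 51.5. The interval of the ratio before centring lay below 1 at these 2 sites and included 1 at the other 8. Foxp1 had 14 tumour and 11 spleen peaks as deposited, and 2 and 11 in the equally spaced lists, so its tumour peaks were mostly low ones. Bach2, a repressor of effector programmes, had 15 and 11, then 6 and 11. It also held the single high pair, 126.2 against 26.7 (4.73-fold, 3.13 to 7.18), so the sites of Bach2 differed among themselves.

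Other genes of the list had pairs within 2-fold of the median of all pairs. Klf2 held 80.6 and 84.5, a centred log2 ratio of -0.70, Ccr7 29.7 and 26.2 (-0.45), and Il7r 42.9 and 36.6 (-0.40). Lef1 was above the median at its tallest pair, with 135.9 and 59.6 (0.56). Foxo1, S1pr1 and Cd28 had tumour peaks only. By number of peaks 5 genes had more in tumour and 5 more in spleen in the equally spaced lists, and 31 and 45 peaks were counted in all.

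**Figure D5:**
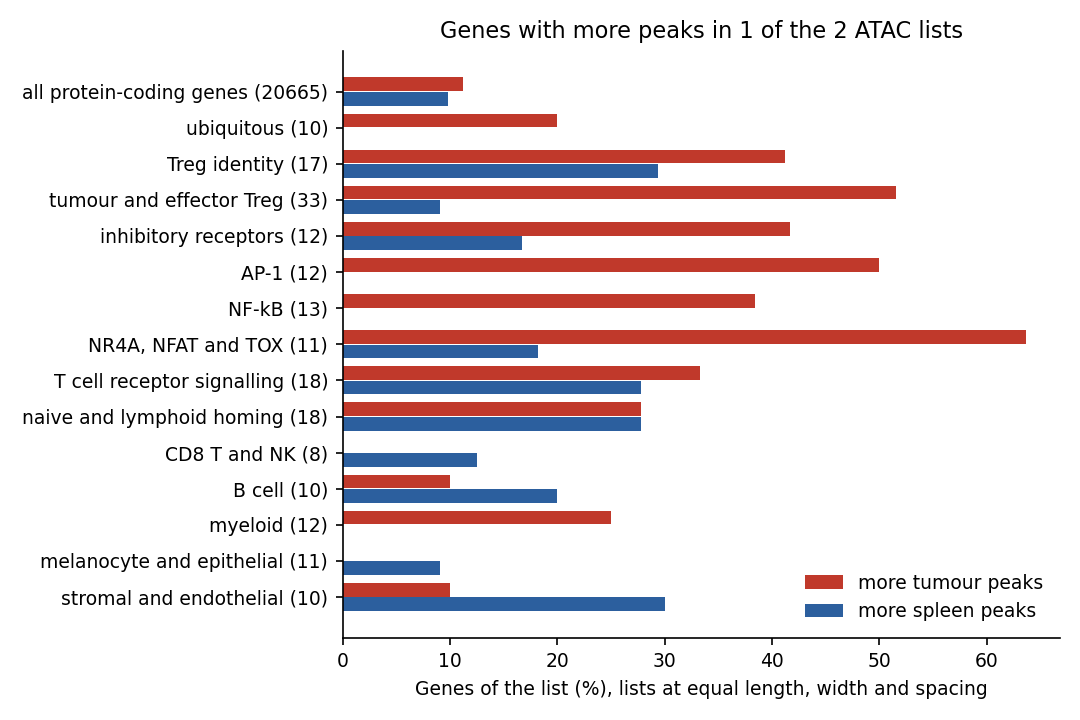
Percent of the genes of each list (number on the autosomes in brackets) with more tumour peaks (red bars) or more spleen peaks (blue bars) within 5 kb, in the equally spaced lists. For all protein-coding genes the bars stand at 11.2% and 9.83%, for the effector list at 17 and 3 of 33 genes, and for the naive list both at 5 of 18.

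For the 10 ubiquitously expressed genes the counts moved with the spacing. As deposited 9 of 10 had more tumour peaks and at equal length 7 of 10, and Gapdh and B2m went from 2 tumour peaks to 1 once the spacing was made equal. In the equally spaced lists 2 of 10 had more tumour peaks and 0 more spleen peaks. Their 12 pairs had a median centred log2 ratio of 0.02, and 1 pair, at Sdha (247.5 and 64.1), was higher past 2-fold.

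Of 51 marker genes of other cells 27 had a peak in either list as deposited, 24 (47.1%) in tumour and 19 (37.3%) in spleen, beside 61.7% and 48.6% of all genes. In the equally spaced lists the shares were 27.5% and 37.3%, beside 47.7% and 48.3% of all genes. Among genes that define such cells, Cd8a, Cd8b1, Klrb1c and Ncr1 (CD8 T and NK cells), Cd79b and Ms4a1 (B cells), Csf1r, Lyz2, Adgre1 and Mpeg1 (myeloid cells), Tyr, Tyrp1 and Sox10 (melanocytes), and Epcam, Krt8 and Krt18 (epithelium) had no peak in either list. Other members of these lists did have peaks. A promoter window of Prf1 (CD8 T and NK cells), Cr2 (B cells), Cebpa (myeloid cells) and Mitf (melanocytes) was touched by both lists as deposited. Of the 12 myeloid genes 8 had a tumour peak and 4 a spleen peak as deposited, 5 and 4 in the equally spaced lists. Spi1 (PU.1) had 3 tumour peaks and Itgam, Fcer1g and Cebpb 2, 2 and 1, with none in spleen. The heights at Cd68 were 90.8 and 48.8 and at Tyrobp 63.3 and 25.7. Of the 10 stromal and endothelial genes 3 had a tumour and 5 a spleen peak, of the 11 melanocyte and epithelial genes 4 and 4, of the 10 B cell genes 6 and 4, and of the 8 CD8 T and NK genes 3 and 2. In the equally spaced lists each of these lists held 1 to 7 tumour peaks and 2 to 5 spleen peaks. The part of other cells in the results above was not tested, and in a bulk library fewer cells with an open site and less opening in each cell cannot be told apart.

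Promoter windows touched by either list were mostly touched by both. Of 31396 RefSeq promoter windows, from 250 bases before to 50 after a start, 6486 were touched by both lists, 2573 by the tumour list alone and 1002 by the spleen list alone. In the equal-length lists the counts were 5562, 1311 and 962. These classes were not taken in the equally spaced lists, so the part of peak spacing in them was not tested. Windows touched by both lists had a median of 23 CpG, those of tumour alone 22, of spleen alone 18, and untouched windows 4. Base composition thus moved with the classes. Among the 185 windows of the list genes, 19 were touched by tumour alone and 5 by spleen alone under both versions, and an AP-1 match stood in 6 of the 19 and 0 of the 5. Beside these, 4 of the 38 windows touched by both lists under both versions and 5 of the 97 touched by neither held one. Of all 31396 windows 7.84% did.

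The AP-1 letters were found more often in windows open in tumour alone than in those open in spleen alone. As deposited 7.11% (6.15 to 8.17) of tumour-alone, 3.99% (2.87 to 5.40) of spleen-alone and 4.12% of shared windows held TGANTCA, beside 7.84% of all windows. Since CpG-rich windows rarely hold these letters, the shares were taken again over windows with fewer than 7 CpG, the median of all windows, a step added after seeing the data. There 72 of 308 tumour-alone windows (23.4%, 18.8 to 28.5), 9 of 146 spleen-alone windows (6.16%, 2.86 to 11.4), 36 of 253 shared windows (14.2%) and 11.1% of untouched windows held it. In the equal-length lists the tumour-alone share was 31.6% (31 of 98, 22.6 to 41.8) and the spleen-alone share 9.63% (13 of 135, 5.23 to 15.9). The other motifs taken in these windows, as deposited, were closer between the lists: NFAT (TGGAAA) 27.6% in tumour alone and 28.1% in spleen alone, TCF/LEF 5.52% and 7.53%, RUNX 9.09% and 13.7%, NF-kB (GGGANNTCC) 2.92% and 3.42%, and ETS (CCGGAAG) 3.57% and 4.11%. At equal length NFAT was 25.5% and 33.3%, TCF/LEF 5.10% and 8.89%, RUNX 10.2% and 11.1%, NF-kB 4.08% and 2.22%, and ETS 3.06% and 2.22%. Of all windows with fewer than 7 CpG, 28.1%, 7.06%, 7.53%, 3.10% and 1.55% hold the letters of these motifs, in that order, and 11.3% those of AP-1. Without the limit on CpG, ETS letters, which 9.004% of all windows hold, stood in 24.3% of shared, 17.3% of tumour-alone and 12.3% of spleen-alone windows, and the KLF/SP letters GGGCGGG (25.8% of all windows) in 51.9%, 50.1% and 37.8%, the order of their CpG content. The letters are a description of the windows and not of binding.

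H3K9me2, a histone mark of silent chromatin, was profiled in the same series in 3 wild-type tumour Treg libraries, which allows the tumour ATAC peaks to be set against it. On average 7.27% ± 2.32 (SD, n = 3 libraries) of tumour ATAC peaks touched an H3K9me2 peak. For shared tumour peaks the value was 8.22% ± 2.21 and for tumour-only peaks 6.62% ± 2.4. Both are taken in the same 3 libraries, so these SD do not measure the spread of the gap. The shared value was the higher in each library, with 5.78% against 4.10%, 10.1% against 8.89% and 8.82% against 6.89%. Spleen peaks, which are wider, gave 10.2% ± 3.02 as deposited. At equal length and width tumour and spleen peaks gave 7.71% ± 2.24 and 7.88% ± 2.24, and tumour-only and spleen-only peaks 6.80% ± 2.39 and 7.09% ± 2.18. The last 2 values did not keep 1 order over the 3 libraries, with 4.29% against 4.65%, 9.04% against 8.85% and 7.07% against 7.77%.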

How the data were processed

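ATAC-seq peak lists of 1 tumour and 1 spleen Treg library were compared, together with the peak lists of 3 wild-type H3K9me2 libraries. The submitters' processing notes name the mm10 build and, with no role or order, HOMER, SAMtools 1.11, deepTools, Bowtie2 2.4.2, Trim Galore 0.6.6 and Picard. Per the file headers, peaks were called in each library by itself with HOMER findPeaks in factor style, without a control, at a false discovery rate of 0.001 and at least 4-fold over the 10 kb around each peak. These steps left 27655 of 32439 putative peaks in tumour and 13089 of 14860 in spleen. No shift of reads for the Tn5 cut is recorded in the headers, so peak centres may be off by a few bases.

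The deposited Normalized Tag Count is a signal scaled by the authors to 10000000 tags. The deposited findPeaks Score is the caller's score for each peak, the deposited focus ratio is a fraction per peak, and the deposited fold over the local surroundings is a ratio with a p-value per peak. All of these are values of the authors' caller. No column of other samples was used.

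The members and the 14 gene lists were chosen with earlier results of these data known. Peaks touched when they shared 1 bp or more, pairs were mutual nearest centres of peaks that touched, and a pair was called past a fold of 2 around the median of all pairs. Ratio intervals are exact binomial on tag counts. Genes (20665 protein-coding, on autosomes) and promoter windows came from RefSeq tables of GRCm38.p6, and a gene held a peak that touched its span with 5 kb on both sides. Chromosome 18 was not used where a gene start or a promoter window was needed. Motifs were sought in promoter windows, because no genome sequence was used here for windows around peaks. Genes named were those of the lists with a peak and the protein-coding genes within 10 kb of the 10 highest peaks of each list, of the 10 pairs of largest ratio in each direction among the taller pairs, and of the 10 highest peaks of each list only. Other names were chosen after their values were seen, and some members of the lists are counted but not reported here by name. The pairing and overlap steps were tested on simulated peak lists. Python 3.11.15, pandas 2.3.3, NumPy 2.4.6, SciPy 1.17.1 and matplotlib 3.10.9 were used.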

Additional observations from a re-analysis of the deposited data

Results flagged for a closer look

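Peaks outside the autosomes entered none of the comparisons. The tumour list held 606 peaks on the X chromosome, 7 on the Y chromosome and 30 on unplaced sequence, and the spleen list 273, 5 and 11. At Foxp3, on the X chromosome, 2 peaks were listed in tumour and 2 in spleen. These sets stood out as signal in data left aside, for which no control library sets a level.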

How the results depend on the processing

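No paired analysis was possible because each tissue has 1 ATAC library. Of the alternatives tried for the main results, 106 left a summary value within its allowed range, and 64 moved it. That range was the value's counting interval, its spread, 1.5 times a count or, for the rank correlation, a set band of 0.62 to 0.72. For the AP-1 shares of promoter windows 2 further alternatives stayed within the counting interval. Percent shared of the tumour list was 37.7 with all peaks at 300 bp, 66.4 with the list cut, 63.0 with both, 42.9 in the upper 50% of each list by Score, 33.2 with centres at most 150 bp apart, 41.9 with spleen spacing and 63.6 with spacing, cut and width together. For the spleen list the values were 79.6, 66.4, 63.0, 90.4, 70.0, 83.2 and 63.6. The median log2 pair ratio was 0.85 in the equal-length lists, 0.68 with centres within 150 bp and 0.86 in the taller pairs. Pairs higher in tumour were 6.84% at equal length, 7.23% by Score scaled to library size, 31.3% without centring and 1.89% past a fold of 3. Pairs lower in tumour were 6.26%, 9.96%, 2.62% and 3.17%, and 7.42% in the taller pairs, where 9.11% were higher. The excess of lower over higher pairs did not hold without centring, in the taller pairs or at equal length, where the cut takes out pairs low in tumour. It was kept by Score and past a fold of 3. The spleen focus ratio was 0.731 in shared pairs. The tumour distance to gene ends had a median of 1057 bp after the cut, 2651 bp with all gene types and 1236 bp in the upper 50%, with 49.6%, 39.2% and 48.5% within 1 kb, 28.9% within 500 bp and 47.6% within 5 kb. The spleen medians were 653 bp with all gene types and 241 bp in the upper 50%, with 53.7%, 62.4%, 43.0% and 58.9%. Genes per tumour peak were 1.09 at equal length, 0.713 for the gene span alone and 1.53 with 20 kb, and per spleen peak 0.850 and 1.64 for these spans. Members with a peak, for the equal-length, equally spaced and gene-span versions, moved to 0, 1 and 1 (CD8 T and NK in tumour), 3, 3 and 3 (B cell in tumour), and 5 and 5 (myeloid in tumour) with 7 and 7 (inhibitory receptors in tumour) in the first and second of these. With the gene span alone the spleen counts were 1 (CD8 T and NK), 2 (B cell) and 1 (myeloid). Members with a spleen-only peak were 10 and 11 (Treg identity) and 10 and 9 (effector), and naive members with a tumour-only peak 9. Leaving out each wild-type H3K9me2 library in turn gave 6.22% to 8.51% of tumour peaks touched and 8.86% to 11.8% of spleen peaks. A reciprocal overlap of 50% was not run, since peaks of 322 bp and 869 bp cannot reach it, and motif windows around peaks, at 100 bp or in the cut list, were not run for want of a genome. The spacing versions, the promoter motifs and the equal-length pairs by position and by gene list were chosen after seeing the data. Depth limits all low peaks: heights near the thresholds of 10 and 15 tags rest on that many reads, and an unlisted site is not shown to be closed.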
